A study of Mus musculus with 12 samples.

Results

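The mitochondrial ribosome (mitoribosome) is the machine that translates the few proteins encoded by mitochondrial DNA, all of them subunits of the respiratory chain and the ATP synthase. Its RNAs come from mitochondrial DNA, whereas its proteins are encoded in the nucleus, made in the cytosol and imported. Genes named Mrpl encode proteins of the large subunit and genes named Mrps mostly those of the small subunit, with exceptions named below. A part of them descends from bacterial ribosomal proteins and the rest is particular to mitochondria. Resting B cells are small and metabolically quiet, and engagement of the antigen receptor starts cell growth, including mitochondrial growth. The transcripts described here are the 76 genes with a symbol of the form Mrpl or Mrps followed by a number, of 18193 genes that carried a probe set with a single gene symbol. There were 47 Mrpl and 29 Mrps genes. For a gene with several probe sets, the one with the brightest average on the 12 arrays was taken (a rule on symbols and mean signal).

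Follicular B cells, which recirculate between blood and lymphoid organs, were sorted as B220+ CD23hi CD21lo cells at a purity above 98% from 6-week-old C57Bl/6 mice. The mice were either IkL/L, which the series describes as deficient for Ikaros (a zinc-finger transcription factor of lymphocytes encoded by Ikzf1), or wild type (WT). IkL is known as a hypomorphic allele carried by the whole animal, so the B cells also developed with it. Cells of each genotype were cultured for 3 h without stimulus, for 3 h with goat F(ab')2 antibody to mouse IgM at 10 µg/ml, or for 12 h with that antibody, which binds and engages the antigen receptor. Each of the 6 groups had 2 arrays, from 2 independent experiments, giving 12 arrays in all. Since the unstimulated cells were cultured for 3 h, time and stimulus cannot be told apart in the 12 h cultures. The number of mice behind each sample is not stated. Values are log2 signals, and a difference of 1 is a 2-fold change.

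The promoters of 4 genes that recur below are printed because they stand for 4 different patterns of expression: Mrpl12 was among the early risers, Mrps25 rose late, Mrpl52 was higher in unstimulated IkL/L cells than in WT cells, and Mrpl34 fell at 3 h in IkL/L cells. Each is 5′ to 3′ on the gene's own strand, from 250 bases before to 50 bases after the start given by RefSeq on GRCm38.p6. Mrpl12 lies at chr11:120484387-120484686 (plus strand), Mrps25 at chr6:92183974-92184273 (minus strand), Mrpl52 at chr14:54426659-54426958 (plus strand) and Mrpl34 at chr8:71464676-71464975 (plus strand). Capitals mark exact matches on either strand to 6 short motifs, spelled out after the sequences.
Mrpl12: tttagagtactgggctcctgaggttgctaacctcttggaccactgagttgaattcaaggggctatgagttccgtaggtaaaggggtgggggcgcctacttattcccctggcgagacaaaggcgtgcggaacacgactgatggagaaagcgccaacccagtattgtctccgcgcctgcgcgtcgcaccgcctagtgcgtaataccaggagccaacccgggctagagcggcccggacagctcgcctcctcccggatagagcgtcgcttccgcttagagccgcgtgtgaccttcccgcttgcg
Mrps25: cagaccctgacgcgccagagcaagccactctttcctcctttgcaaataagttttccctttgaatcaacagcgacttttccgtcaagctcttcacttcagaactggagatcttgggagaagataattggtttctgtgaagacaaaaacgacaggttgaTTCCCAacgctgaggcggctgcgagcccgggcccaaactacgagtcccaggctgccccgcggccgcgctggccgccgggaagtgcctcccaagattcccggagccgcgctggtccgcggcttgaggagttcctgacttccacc
Mrpl52: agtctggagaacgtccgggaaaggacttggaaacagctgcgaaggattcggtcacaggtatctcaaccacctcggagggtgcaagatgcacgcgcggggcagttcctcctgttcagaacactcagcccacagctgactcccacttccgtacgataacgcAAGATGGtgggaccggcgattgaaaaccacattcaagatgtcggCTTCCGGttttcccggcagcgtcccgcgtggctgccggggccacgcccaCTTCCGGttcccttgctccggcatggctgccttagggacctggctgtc
Mrpl34: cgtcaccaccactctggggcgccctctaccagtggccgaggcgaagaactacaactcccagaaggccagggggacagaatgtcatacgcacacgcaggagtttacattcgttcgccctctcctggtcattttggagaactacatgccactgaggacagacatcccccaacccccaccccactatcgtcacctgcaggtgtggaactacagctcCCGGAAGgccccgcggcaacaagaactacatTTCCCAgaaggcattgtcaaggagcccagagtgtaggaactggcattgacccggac
The motifs searched were CCGGAAG (bound by ETS factors such as GABP), GCATGCG (the core of the NRF1 site), AAGATGG (the core of the YY1 site), CACGTG (the E-box bound by MYC), TGGGAA (the core bound by Ikaros) and TATAAA. No match overlapped another in these 4 windows. Mrpl12 held none of them, Mrps25 held 1 match (TGGGAA), Mrpl52 held 3 (1 AAGATGG and 2 CCGGAAG) and Mrpl34 held 2 (CCGGAAG and TGGGAA).

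Of the 76 genes, 67 matched the RefSeq promoter table, with 73 windows. The members lie on 17 chromosomes with at most 11 on any one. CCGGAAG stood in 34.2% of their windows, against 13% of the 18109 windows of all measured genes that matched. GCATGCG stood in 11% of the members' windows against 5.09% of all, and AAGATGG in 17.8% against 6.38%. CACGTG was about as common in both (9.59% and 8.72%), as was TGGGAA (27.4% and 24.2%), while TATAAA stood in 6.85% and 9.77%. Among the members that rose in WT cells at 3 h, CCGGAAG stood in 25.8% of windows, against 40.5% of windows of the members that did not pass the test there. Another gene started on the opposite strand within 1000 bases upstream of the start for 37.0% of the members' windows, against 14.7% of all windows. The other families described below had some of these traits as often: CCGGAAG stood in 41.7% of windows of cytosolic ribosomal protein genes, GCATGCG in 14.1% of those of respiratory chain genes, and an opposite start lay near 38.7% of those of ribosome biogenesis genes. CCGGAAG and GCATGCG contain the letters CG. The ratio of observed to expected CG had a median of 0.818 in the members' windows and 0.65 in all windows. Its part in the shares was not tested. The motif shares are matches of letters, described without a test, and they do not show binding.

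Array medians lay between 3.12 and 3.21, and the members were mostly well above them. Their means over all arrays ran from 4.35 (Mrpl33) to 10.3 (Mrpl39), with a median of 8.07. The members with the lowest means were Mrpl33, Mrpl14 and Mrpl1. Ikzf1 transcripts gave log2 signals of 10.00 and 9.94 in unstimulated IkL/L cells, against 9.85 and 9.83 in unstimulated WT cells. At 3 h they gave 8.58 and 8.08 in IkL/L cells, against 8.93 and 9.10 in WT cells, and at 12 h 9.59 and 8.98 in IkL/L cells, against 10.33 and 10.00 in WT cells. None of the 3 genotype differences passed the test, and the place of this 3′ probe set within the altered gene is not known here, so it does not check the labels. The median of 7 measured B cell markers per array was 9.95 to 10.03 in IkL/L and 10.66 to 10.85 in WT unstimulated cells, and 8.54 to 9.74 in IkL/L and 9.02 to 9.28 in WT stimulated cells. In both genotypes 5 of them fell at 3 h, including Cd79a and Cd22. Medians of the T cell markers (5 genes) were 3.08 to 3.29 and of the NK cell markers (2 genes) 2.80 to 3.04, at the level of the array median, and of the myeloid markers (6 genes) 3.25 to 4.15, with none of the last changed in any time comparison and 1 T cell marker higher at 3 h in WT cells. The summed linear signal of the myeloid markers ran from 54.7 to 271 and was higher in replicate 2 than in replicate 1 of every group. That of the plasma cell markers was also higher in replicate 2 of every group. In IkL/L cells it was 562 to 904 unstimulated, 525 to 787 at 3 h and 884 to 1089 at 12 h. In WT cells it was 432 to 621, 380 to 464 and 582 to 732, so the genotypes overlapped in this sum only unstimulated. The medians of these markers overlapped in every condition. Unstimulated they were 4.53 to 6.04 in IkL/L and 5.64 to 6.80 in WT cells. They were 4.32 to 5.53 and 4.81 to 5.40 at 3 h, and 3.59 to 5.13 and 3.75 to 3.81 at 12 h. The summed linear signal of the erythroid markers, 15.4 to 41.6, was higher in replicate 1 of every group. The part of these signals in the results was not tested. The summed linear signal of 4 marginal zone B cell markers was 449 to 497 unstimulated, 887 to 962 at 3 h and 530 to 718 at 12 h in IkL/L cells. In WT cells it was 311 to 327, 709 to 753 and 271 to 292 in the same conditions. This sum was thus highest at 3 h in both genotypes and higher in IkL/L cells in each condition. The median of the same markers was 6.74 and 7.11 in IkL/L and 6.26 and 6.37 in WT cells unstimulated. At 3 h it was 8.08 and 8.04 against 7.14 and 6.87. At 12 h it was 6.11 and 5.73 against 6.04 and 6.12, so the genotypes overlapped there. The part of these markers in the results was not tested. The 3 arrays of WT replicate 1 stood apart from the other 9: Xist, the transcript of the inactive X chromosome, read 10.0 to 10.7 on them and 3.19 to 3.48 on the others, while the Y-linked Eif2s3y read 2.41 to 2.83 on them and 8.30 to 9.24 on the others. Sex and experiment cannot be told apart there, and the main WT counts are also given without WT replicate 1. Since no IkL/L array read high for Xist, the comparisons between genotypes are unbalanced in this as well. The WT counts by timing and by subunit, and the counts of members by direction between genotypes, were not recomputed without WT replicate 1. In bulk samples, fewer cells of a type and less RNA per cell cannot be told apart.

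After 3 h of anti-IgM a part of the mitoribosomal protein transcripts was already higher, in both genotypes. In IkL/L cells 27 of 76 members rose and 3 fell (9.82% of all genes rose and 10.6% fell, 20.4% in all), with a median log2 difference of 0.40 for the members and -0.03 for all genes. In WT cells 36 members rose and 0 fell (9.15% of all genes rose and 10.2% fell), with a median of 0.47 for the members and 0.02 for all genes. A gene counts as changed at a limma adjusted p under 0.05 (Benjamini-Hochberg over all genes). The shares of all genes called, here and below, belong to the main fit of all 12 arrays. They were not computed for the fits with arrays left out, replicate blocks or other scaling. Counts of members in those fits therefore have no share of all genes beside them. At an unadjusted p under 0.05, 2 members were lower in WT cells at 3 h. Of the members, 25 rose in both genotypes, and the share of all genes that did so was not computed. With WT replicate 1 left out, 7 members changed in WT cells, and with WT replicate 2 left out 17 members changed. For IkL/L, 14 and 17 members changed without the unstimulated replicate 1 or the 3 h replicate 2 array, and 12 and 15 without all arrays of replicate 1 or of replicate 2. With a replicate block within genotype, 40 members rose and 4 fell in IkL/L cells, and 45 rose and 1 fell in WT cells. Under the scaling to housekeeping genes described below, 14 rose and 1 fell in IkL/L cells and 20 rose in WT cells. The medians moved little under the omissions, between 0.35 and 0.48 in IkL/L cells and between 0.47 and 0.54 in WT cells.

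Mrpl12, a large-subunit protein of the stalk that recruits translation factors and that has also been found bound to the mitochondrial RNA polymerase, was among the early risers. Its log2 signals in IkL/L cells were 8.85 and 8.73 unstimulated, 9.68 and 9.95 at 3 h and 9.60 and 9.74 at 12 h. In WT cells they were 8.19 and 8.20 unstimulated, 9.55 and 9.67 at 3 h and 9.65 and 9.36 at 12 h. All stimulated arrays lay above all unstimulated ones in each genotype, and the difference of 12 h from 3 h did not pass the test (-0.15 in IkL/L and -0.10 in WT cells). The 3 h difference was 1.03 in IkL/L cells (SE 0.14, limma adjusted p = 0.000497) and 1.41 in WT cells (SE 0.14, limma adjusted p = 7.96e-05), and both calls held when any array or any replicate of a genotype was left out.

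Mrps6, the small-subunit counterpart of the bacterial protein of the same number, had the largest 3 h difference of the members in WT cells. Its log2 signals at 3 h, against unstimulated cells, were 8.60 and 9.28 against 7.38 and 8.03 in IkL/L cells, and 8.56 and 8.46 against 6.98 and 6.85 in WT cells. The groups did not overlap in either genotype, and replicate 2 was the higher in both IkL/L groups. The log2 difference was 1.24 in IkL/L cells (SE 0.31, limma adjusted p = 0.0158) and 1.60 in WT cells (SE 0.31, limma adjusted p = 0.00409). The WT call was lost without WT replicate 1 (adjusted p = 0.0759) or WT replicate 2 (0.0761), and the IkL/L call without the unstimulated replicate 1 array (0.129), the 3 h replicate 2 array (0.142), IkL/L replicate 1 (0.0513) or IkL/L replicate 2 (0.0508).

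Mrpl17 and Mrpl19, large-subunit proteins with bacterial counterparts, and Mrpl50, a large-subunit protein particular to mitochondria, also rose in both genotypes at 3 h. The log2 differences in IkL/L and WT cells were 1.01 and 1.35 for Mrpl17, 1.25 and 1.24 for Mrpl19, and 1.25 and 1.34 for Mrpl50. Without WT replicate 1 the WT calls were lost for Mrpl17 (limma adjusted p = 0.0842), Mrpl19 (0.0547) and Mrpl50 (0.107). The IkL/L calls were lost for Mrpl17 (0.0513) and Mrpl19 without IkL/L replicate 1 (0.061) and for Mrpl50 without IkL/L replicate 2 (0.0768). Mrps27, a small-subunit protein of the pentatricopeptide repeat family, had 6.50 and 6.68 at 3 h in IkL/L cells, against 5.11 and 5.72 unstimulated, a difference of 1.18 (SE 0.21, limma adjusted p = 0.00245). That call held in every omission. The members whose 3 h call held in every omission were 7 of 30 in IkL/L cells (Mrpl12, Mrpl16, Mrpl21, Mrps18a, Mrps2, Mrps27 and Mrps28) and 7 of 36 in WT cells (Mrpl12, Mrpl15, Mrpl16, Mrpl38, Mrpl46, Mrps2 and Mrps28). These lists were drawn up after the values were seen.

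Without the replicate block, the 3 members that fell at 3 h did so in IkL/L cells, and they were higher at 12 h than at 3 h. Mrpl34, a small large-subunit protein with a bacterial counterpart, had log2 signals of 6.55 and 6.77 unstimulated, 5.39 and 5.72 at 3 h and 6.51 and 6.70 at 12 h in IkL/L cells. In WT cells it had 6.44 and 6.88 unstimulated, 6.13 and 6.57 at 3 h and 6.75 and 7.22 at 12 h, with overlap between the first 2 conditions. The 3 h difference was -1.10 in IkL/L cells (SE 0.22, limma adjusted p = 0.00519) and -0.31 in WT cells (adjusted p = 0.473). The difference between these responses did not pass the test (-0.80, adjusted p = 0.821). The IkL/L call was lost without IkL/L replicate 1 (0.113) or replicate 2 (0.0805).

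Mrps16, the small-subunit counterpart of the bacterial protein of that number, showed a like course. Its log2 signals in IkL/L cells were 8.56 and 8.54 unstimulated, 7.50 and 7.74 at 3 h and 8.27 and 8.84 at 12 h. In WT cells they were 8.09 and 8.59 unstimulated, 7.65 and 7.76 at 3 h and 8.30 and 8.63 at 12 h. In each genotype both 3 h arrays were the lowest. The 3 h difference was -0.93 in IkL/L cells (limma adjusted p = 0.0116) and -0.63 in WT cells (adjusted p = 0.0721). The IkL/L call was lost without the unstimulated replicate 1 array (0.058), the 3 h replicate 1 array (0.0838), IkL/L replicate 1 (0.145) or replicate 2 (0.0586). Mrpl4, a large-subunit protein near the exit tunnel, fell by 0.48 in IkL/L cells (limma adjusted p = 0.0454), a call lost in 12 of 16 omissions, among them without the WT 3 h replicate 1 array (0.0566) and without IkL/L replicate 2 (0.336).

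**Figure D1:**
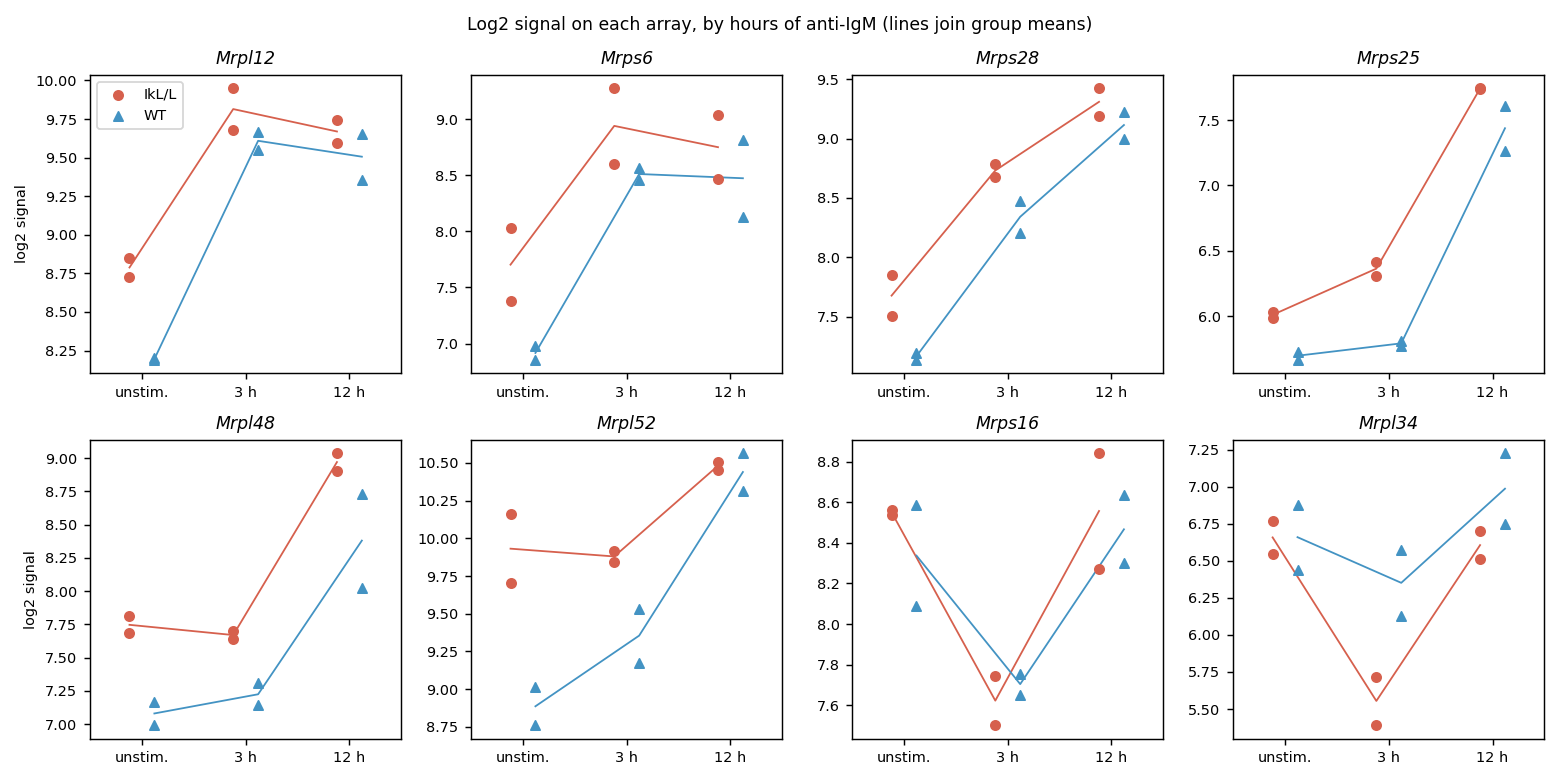
Log2 signal (vertical axis) of 8 members on each of the 12 arrays, by condition (horizontal axis), with IkL/L arrays as red circles and WT arrays as blue triangles, 2 per group, and lines through the group means. The group means of Mrpl12 and Mrps6 were no lower at 3 h than at 12 h, Mrps25 and Mrpl48 rose after 3 h, Mrps28 rose in both steps, and Mrps16 and Mrpl34 were lowest at 3 h.

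At 12 h most mitoribosomal protein transcripts were higher. In IkL/L cells 51 of 76 members rose and 0 fell (9.72% of all genes rose and 7.87% fell), with a median log2 difference of 0.66 against 0.02 for all genes. In WT cells 61 rose and 0 fell (10.1% of all genes rose and 8.66% fell), with a median of 0.91 against 0.05 for all genes. At an unadjusted p under 0.05 no member was lower in either genotype by the same limma test, and 63 and 64 were higher in IkL/L and WT cells. All 76 differences were above 0 in WT cells and 71 in IkL/L cells. At least a 2-fold rise was reached by 10 members in IkL/L cells and 27 in WT cells. Of the members, 50 rose in both genotypes. For this count and the 2-fold counts, the shares of all genes were not computed. In WT cells 31 members changed without WT replicate 1 and 32 without WT replicate 2. For IkL/L, 29 members changed without the unstimulated replicate 1 array, 23 without the 12 h replicate 2 array, 23 without replicate 1 and 20 without replicate 2. When arrays were scaled to equal means of 7 housekeeping genes, 5 members were called in IkL/L cells and 33 in WT cells. The share of all genes called under that scaling was not computed. That scaling shifted the median of all genes at 12 h to -0.34 in IkL/L cells and to -0.14 in WT cells. The members' medians were then 0.30 and 0.72.

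Mrps28, a small-subunit protein, had the largest 12 h difference of the members in WT cells and rose at both steps. Its log2 signals in IkL/L cells were 7.51 and 7.85 unstimulated, 8.68 and 8.78 at 3 h and 9.19 and 9.42 at 12 h. In WT cells they were 7.14 and 7.20 unstimulated, 8.48 and 8.20 at 3 h and 9.23 and 9.0 at 12 h. The 3 conditions did not overlap in either genotype. The 12 h difference was 1.63 in IkL/L cells (SE 0.16, limma adjusted p = 0.000102) and 1.94 in WT cells (SE 0.16, limma adjusted p = 3.45e-05), and both calls held in every omission.

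Mrps25, a small-subunit protein particular to mitochondria, was a late riser. Its log2 signals in IkL/L cells were 5.98 and 6.04 unstimulated, 6.31 and 6.42 at 3 h and 7.75 and 7.74 at 12 h. In WT cells they were 5.66 and 5.73 unstimulated, 5.77 and 5.81 at 3 h and 7.27 and 7.61 at 12 h. The 12 h arrays stood clear of the others in both genotypes. The 12 h difference was 1.73 in IkL/L cells (SE 0.13, limma adjusted p = 2.58e-05) and 1.74 in WT cells (SE 0.13, limma adjusted p = 1.82e-05), whereas the 3 h difference was 0.35 (adjusted p = 0.0812) and 0.09 (adjusted p = 0.754). The 12 h calls of both genotypes held in every omission, as did those of 12 h against 3 h (1.38 and 1.65).

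The other large rises at 12 h came from both subunits. Mrpl42, particular to the mitochondrial large subunit, rose by 1.30 in IkL/L cells (SE 0.17, limma adjusted p = 0.000567) and by 1.18 in WT cells (SE 0.17, limma adjusted p = 0.000822), and both calls held in every omission. Mrps6 rose at 12 h by 1.05 and 1.56, and its WT call was lost without WT replicate 2 (adjusted p = 0.204) and its IkL/L call in 10 of 16 omissions, for example without the 12 h replicate 2 array (0.273). Mrps15, with a bacterial counterpart in the small subunit, rose by 1.00 and 1.38, and its IkL/L call was lost without IkL/L replicate 1 (adjusted p = 0.1) or replicate 2 (0.0566). Mrpl48 rose by 1.22 and 1.30, and its IkL/L call was lost without IkL/L replicate 1 (adjusted p = 0.0683) or replicate 2 (0.0775). Mrpl52 rose by 1.55 in WT cells (SE 0.18, limma adjusted p = 0.000245) and had a difference of 0.55 in IkL/L cells (adjusted p = 0.0647), where its unstimulated signal was already higher than in WT cells. The calls at 12 h that held in every omission numbered 11 of 51 in IkL/L cells and 21 of 61 in WT cells, and among those in both genotypes were Mrpl15, Mrpl16, Mrpl2, Mrpl42, Mrpl55, Mrps25, Mrps28 and Mrps36.

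Some members that the naming rule fixes by function were spread over the range. Mrpl58, the peptide-release factor built into the large subunit that frees stalled ribosomes, rose at 12 h by 0.67 in IkL/L cells and by 0.91 in WT cells, with 3 h differences of 0.11 and 0.06 that did not pass the test. Its 12 h call in WT cells was lost without WT replicate 2 (limma adjusted p = 0.142), and that in IkL/L cells without the 12 h replicate 2 array (0.102), among other omissions. Mrpl11, at the base of the large-subunit stalk, rose at 12 h by 0.73 and 1.02, and its IkL/L call was lost without IkL/L replicate 1 (0.0786) or replicate 2 (0.0658). Mrps12, in the decoding centre of the small subunit, rose at 12 h by 0.87 and 1.10, calls that were lost without the IkL/L 12 h replicate 2 array (0.0528), and without WT replicate 1 (0.0633) or replicate 2 (0.0793). Mrps36, now regarded as a component of the 2-oxoglutarate dehydrogenase complex rather than of the ribosome, rose at 12 h by 0.95 and 0.92.

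The 3 homologues of 1 bacterial small-subunit protein, Mrps18a, Mrps18b and Mrps18c, occupy different places in the mitoribosome. Mrps18a, which sits in the large subunit, had 3 h differences of 1.15 in IkL/L cells (limma adjusted p = 0.00269) and 1.05 in WT cells (adjusted p = 0.00459). Mrps18b had 3 h differences of 0.82 (limma adjusted p = 0.0298) and 1.12 (adjusted p = 0.00623). Mrps18c had 3 h differences of 0.13 and 0.02, neither past the test, and in WT cells its log2 signals were 8.22 and 7.96 unstimulated, 8.25 and 7.97 at 3 h and 9.11 and 8.91 at 12 h. Its 12 h rise in WT cells was 0.91 (limma adjusted p = 0.0061), and was lost without the unstimulated replicate 2 array (0.0601), WT replicate 1 (0.0834) or WT replicate 2 (0.109). The WT 3 h calls of Mrps18a and Mrps18b were lost without WT replicate 1 (0.108 and 0.195) or WT replicate 2 (0.1 and 0.101). The IkL/L 3 h call of Mrps18b was lost in 6 omissions, for example without the unstimulated replicate 1 array (0.225). The differences between the 3 genes were not tested.

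**Figure D2:**
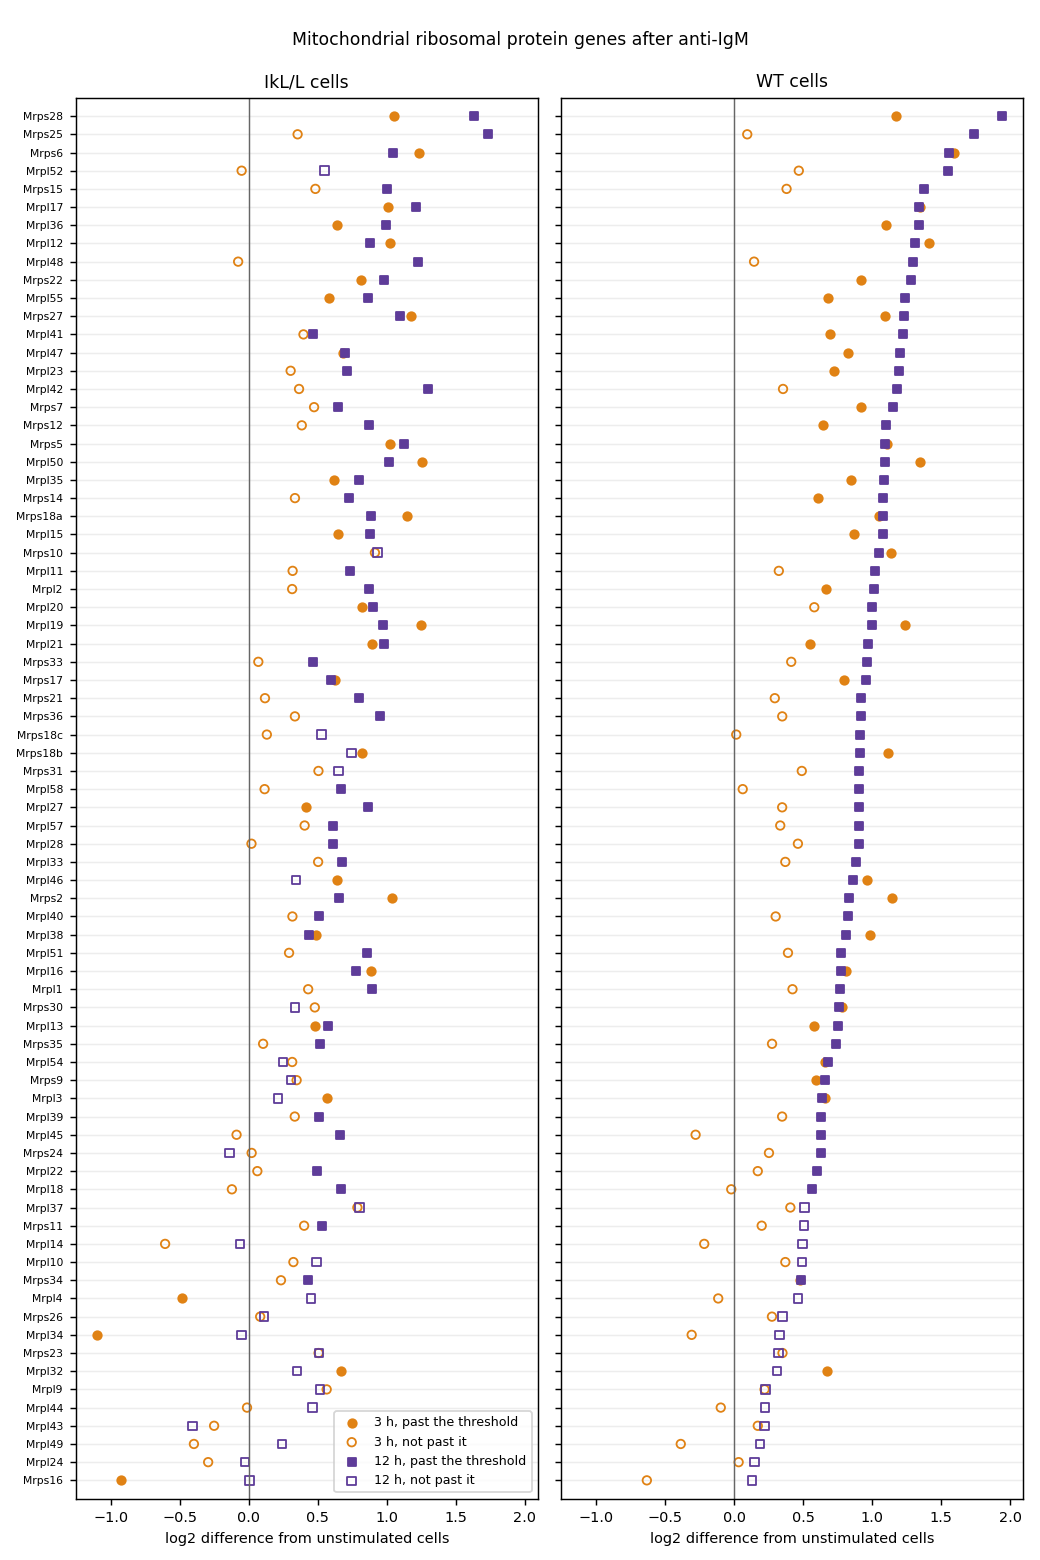
Log2 difference from unstimulated cells (horizontal axis) of each of the 76 members (rows, ordered by the 12 h difference in WT cells), in IkL/L cells on the left and WT cells on the right. Orange circles are 3 h, purple squares 12 h, and filled symbols passed the test. In WT cells every purple square lies to the right of 0, and the orange circles run from -0.63 (Mrps16) to 1.60 (Mrps6).

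Members differed in when they rose. Both times saw a rise of 23 members in IkL/L cells, and 28 rose at 12 h but not at 3 h, of which 12 were also higher at 12 h than at 3 h. In WT cells 35 members rose at both times and 26 at 12 h but not at 3 h, of which 15 were also higher at 12 h than at 3 h. The shares of all genes with these patterns were not computed. A call at 12 h and none at 3 h does not by itself show a late rise, so the direct comparison was made. Between 3 h and 12 h, 19 members rose and 1 fell in IkL/L cells (9.12% and 6.42% of all genes), and 22 rose and 0 fell in WT cells (6.5% and 4.33% of all genes, and 2 members lower at an unadjusted p under 0.05 by limma). The median was 0.18 in IkL/L cells and 0.36 in WT cells, against 0.05 and 0.02 for all genes. When each gene was given the average of its probe sets, it was 0.08 in IkL/L cells and 0.19 in WT cells. In IkL/L cells the median turned to -0.18 under the housekeeping scaling, with 2 members higher and 2 lower. The median of all genes was then -0.32, below that of the members. After median centring 11 members rose and 2 fell in IkL/L cells. With a replicate block within genotype, 31 members changed in each genotype. Without WT replicate 1, 3 members changed in WT cells, and without WT replicate 2 it was 4. For IkL/L, 1 and 2 members changed without replicate 1 and replicate 2, and leaving out a single array of the groups compared gave 7 to 11 in IkL/L cells and 10 to 13 in WT cells.

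Besides Mrps25, the largest rises from 3 h to 12 h in IkL/L cells were those of Mrpl48 (1.30), Mrpl34 (1.05), Mrpl42 (0.94) and Mrpl4 (0.94), and in WT cells those of Mrpl48 (1.16), Mrpl52 (1.08), Mrps15 (1.00) and Mrpl45 (0.91). Mrpl45 anchors the mitoribosome to the inner membrane beside the exit tunnel. Mrpl48 had log2 signals in IkL/L cells of 7.68 and 7.81 unstimulated, 7.64 and 7.70 at 3 h and 8.91 and 9.04 at 12 h. In WT cells it had 7.17 and 6.99 unstimulated, 7.31 and 7.14 at 3 h and 8.73 and 8.03 at 12 h. Both 12 h arrays were the highest in each genotype, although the WT replicates differed more than the IkL/L ones. Its calls from 3 h to 12 h were lost without WT replicate 1 (limma adjusted p = 0.0528), IkL/L replicate 1 (0.0627) or IkL/L replicate 2 (0.0817). Without IkL/L replicate 1 the calls of Mrpl34 (0.162), Mrpl42 (0.0571) and Mrpl4 (0.0565) were also lost, and without WT replicate 1 those of Mrpl52 (0.08) and Mrpl45 (0.328). Of these rises, the calls that held in every omission were Mrps25 in IkL/L cells, and Mrps15 and Mrps25 in WT cells. Mrpl3, a large-subunit protein with a bacterial counterpart, was the 1 member that fell, by 0.36 in IkL/L cells (limma adjusted p = 0.0393), and it was lost in 14 of 16 omissions, for example without the IkL/L 12 h replicate 1 array (0.214).

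Over the 76 members the log2 differences of IkL/L and WT cells, which share no array, correlated with r = 0.880 at 3 h and 0.785 at 12 h. This describes genes, which are not independent replicates, and probe behaviour is common to both. There were 21 members that rose in all 4 comparisons with unstimulated cells (share of all genes not computed), among them Mrpl12, Mrpl17, Mrps2, Mrps6, Mrps27 and Mrps28. In none of the 4 did 13 members rise, among them Mrpl4, Mrpl34 and Mrps16, the dimly measured Mrpl14, and the brightly measured Mrpl24 with a difference of 0.15 at 12 h in WT cells (limma adjusted p = 0.424) and -0.03 in IkL/L cells.

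Both Mrpl and Mrps genes contributed, a split by symbol, and the difference between them was not tested. At 12 h 32 of 47 Mrpl and 19 of 29 Mrps genes rose in IkL/L cells, with medians of 0.67 and 0.65, and 36 and 25 rose in WT cells, with medians of 0.86 and 0.92. By descent, 28 measured large-subunit proteins with a bacterial homologue had 20 rises in IkL/L and 21 in WT cells at 12 h, and 21 without one had 13 and 17. For the small subunit, 16 members with a bacterial homologue had 10 and 14 rises at 12 h, and 10 without one had 7 and 8. At 3 h the medians of those groups in WT cells were 0.56, 0.39, 0.63 and 0.45 in the same order, and these were not tested against each other. Of 4 further mitoribosome proteins that carry other symbols and were measured, 3 rose at 3 h in both genotypes: Gadd45gip1 (0.56 in IkL/L and 1.14 in WT cells), Ptcd3 (0.89 and 1.14) and Chchd1 (0.58 and 0.81). Dap3, a GTP-binding protein of the small subunit, had -0.10 and -0.01.

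The members were set beside 3 other gene families, to be read against the shares of all genes given above for each comparison. Of 46 cytosolic ribosomal protein genes, 2 rose and 2 fell in IkL/L cells at 12 h and 4 rose in WT cells, with medians of 0.01 and 0.08. Their median signal over all arrays was 12.5. Of 33 genes for cytosolic ribosome biogenesis, the nucleolar machinery that builds cytosolic ribosomes, 32 rose at 3 h in IkL/L cells (median 1.43) and 33 in WT cells (median 1.61). By 12 h their medians were 0.89 and 1.03, and between 3 h and 12 h 12 of them fell in IkL/L cells and 10 in WT cells. Of 81 respiratory chain and ATP synthase genes, 5 rose and 12 fell at 3 h in IkL/L cells, and 9 rose and 4 fell in WT cells, with medians of -0.07 and 0.08. At 12 h 38 rose and 2 fell in IkL/L cells (median 0.45), and 48 rose and 1 fell in WT cells (median 0.64). The mitoribosomal protein genes thus had a median between those of the biogenesis and respiratory chain genes at 3 h, in both genotypes. Under the housekeeping scaling the 12 h count of respiratory chain genes was 4 higher and 4 lower in IkL/L cells (median 0.09) and 14 higher in WT cells (median 0.45). The 12 h count of biogenesis genes was then 8 in IkL/L cells and 21 in WT cells, and 22 and 7 of them fell between 3 h and 12 h. Without WT replicate 1, 31 biogenesis genes rose at 3 h and 12 at 12 h in WT cells, and 1 fell between the times. The respiratory chain then had 2 higher and 1 lower at 3 h and 20 higher at 12 h in WT cells. The medians of both families in WT cells differed little without it (1.64 and 1.00 for biogenesis genes and 0.12 and 0.62 for the respiratory chain at 3 h and 12 h). The median of the respiratory chain at 3 h in IkL/L cells turned to 0.03 after median centring, where that of all genes was 0.07.

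**Figure D3:**
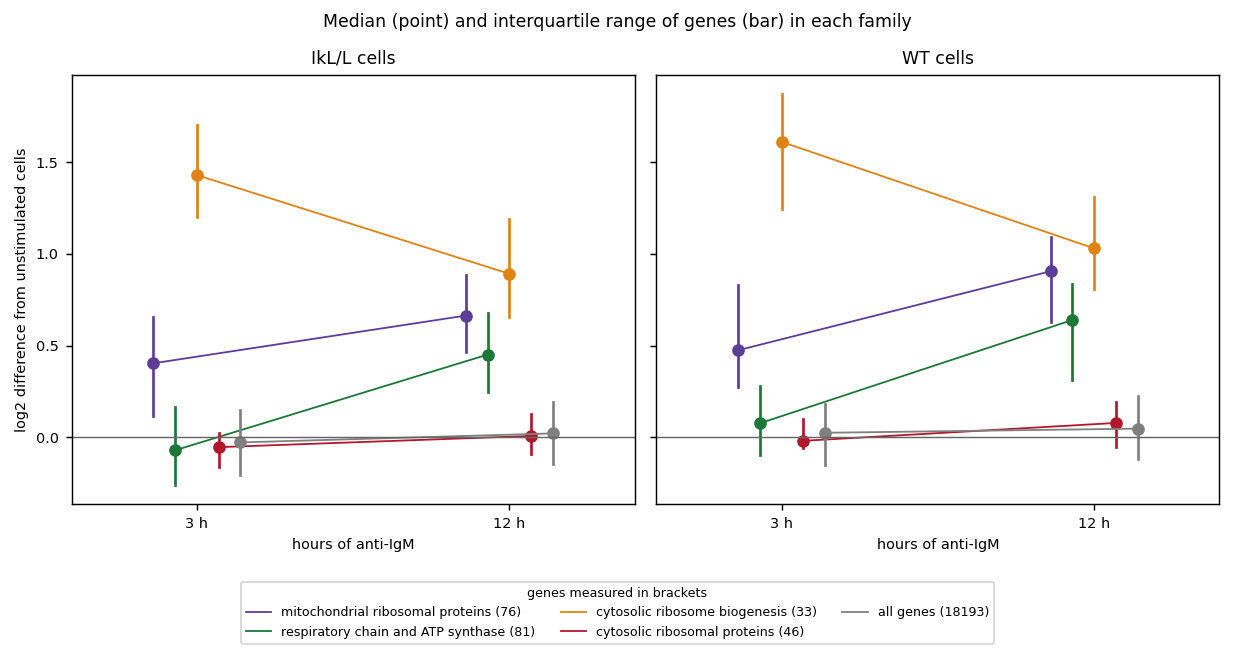
Median log2 difference from unstimulated cells (points) and interquartile range (bars) at 3 h and 12 h for the mitochondrial ribosomal protein genes and 3 other families and all genes, in IkL/L cells on the left and WT cells on the right. Ribosome biogenesis was highest at 3 h (1.43 and 1.61), the respiratory chain lay near 0 at 3 h and at 0.45 and 0.64 at 12 h, and the mitoribosome lay between them at 3 h.

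Other parts of mitochondrial gene expression moved in part. At 3 h 9.82% of all genes rose and 10.6% fell in IkL/L cells, and 9.15% rose and 10.2% fell in WT cells. Among 12 measured mitochondrial translation factors, 4 rose and 1 fell in IkL/L cells at 3 h and 3 rose in WT cells. Gfm1 (an elongation factor) had differences of 0.97 and 0.80, Tsfm (the exchange factor for another elongation factor) 0.90 and 0.86, and Mrrf (the ribosome recycling factor) 0.85 and 1.09, all past the test. Oxa1l, which inserts newly made proteins into the inner membrane, fell by 0.72 in IkL/L cells at 3 h (limma adjusted p = 0.0018) and had -0.30 in WT cells. Of 24 genes for mitoribosome assembly and rRNA modification, 5 rose in IkL/L cells and 7 in WT cells at 3 h. Noa1, a GTPase of small-subunit assembly, had log2 signals at 3 h, against unstimulated cells, of 7.64 and 7.79 against 5.53 and 6.08 in IkL/L cells, and of 7.65 and 7.77 against 5.74 and 6.14 in WT cells. The groups did not overlap, and the differences were 1.91 (limma adjusted p = 0.000187) and 1.77 (limma adjusted p = 0.000292). Mrm3, which methylates the large rRNA, rose by 1.31 and 1.42 at 3 h. Among 7 genes of mitochondrial transcription and RNA handling, Lrpprc (1.26 and 1.11), Tefm (1.30 and 1.11), Tfb2m (0.89 and 0.80) and Slirp (0.55 and 0.67) rose at 3 h, while the RNA polymerase Polrmt (-0.02 and 0.08) and Tfam (-0.22 and -0.19) did not pass the test.

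Among 10 regulators of mitochondrial biogenesis, 4 rose and 1 fell in IkL/L cells at 3 h, and 3 rose and 1 fell in WT cells, beside 9.82% and 10.6% of all genes in IkL/L cells and 9.15% and 10.2% in WT cells. Myc, a growth regulator, had log2 signals in IkL/L cells of 8.82 and 9.66 unstimulated, 11.31 and 11.49 at 3 h and 9.76 and 9.92 at 12 h. In WT cells it had 8.70 and 8.50 unstimulated, 11.61 and 11.16 at 3 h and 9.96 and 9.69 at 12 h. The 3 h arrays were the highest in both genotypes, with 3 h differences of 2.15 (limma adjusted p = 0.000206) and 2.79 (limma adjusted p = 5.4e-05). Pprc1, a serum-induced coactivator of mitochondrial genes, rose by 1.41 and 1.68 at 3 h. Of the subunits of the ETS factor GABP, Gabpb1 rose at 3 h by 0.81 and 1.09, Gabpb2 fell by 0.57 and 0.82, and Gabpa had 0.46 and 0.49, not past the test. Nrf1, Yy1 and Esrra did not pass the test at 3 h in either genotype. These lists were chosen with earlier results of these data known.

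Before stimulation the members tended to be higher in IkL/L cells than in WT cells, and few differences passed the test. Of 76 members 70 had a positive difference in unstimulated cells (92.1% of members, 55% of all genes), with a median of 0.32 against 0.02 for all genes. Of these, 2 rose past the test and 0 fell (0.594% of all genes higher and 0.533% lower, 1.13% in all), with 33 higher and 0 lower at an unadjusted p under 0.05 by limma. At 3 h 65 members were positive (85.5% against 45.7% of all genes), with a median of 0.21, and 0 passed the limma test (0.835% of all genes were higher and 0.868% lower, 1.7% in all), with 11 higher and 2 lower at an unadjusted p under 0.05. At 12 h 53 were positive (69.7% against 49.6%), with a median of 0.09, and 0 passed (0.616% of all genes did), with 5 higher and 1 lower at an unadjusted p under 0.05. The 12 h median turned to -0.03 under the housekeeping scaling, where that of all genes was -0.12. Leaving out 1 array gave medians of 0.12 to 0.29 at 3 h and 0.02 to 0.21 at 12 h, lowest without the IkL/L replicate 2 array of that time and highest without its replicate 1 array. The share of positive members is a description, since members move together and are not replicates. The summed linear signal of the B cell markers was 16030 to 17140 in unstimulated IkL/L cells, against 19747 to 21075 in WT cells, and its part in the genotype differences was not tested.

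The 2 members past the test were Mrpl52, a large-subunit protein particular to mitochondria, and Mrpl23, a large-subunit protein at the exit tunnel. Mrpl52 had log2 signals of 10.16 and 9.70 in unstimulated IkL/L cells, against 8.76 and 9.01 in unstimulated WT cells. At 3 h it had 9.85 and 9.91 in IkL/L cells, against 9.18 and 9.53 in WT cells, and at 12 h 10.51 and 10.45, against 10.32 and 10.56. The genotypes were apart in the first 2 conditions and overlapped in range at 12 h. The unstimulated difference was 1.05 (SE 0.18, limma adjusted p = 0.0276). Mrpl23 had 9.31 and 9.47 in unstimulated IkL/L cells, against 8.64 and 8.84 in unstimulated WT cells, a difference of 0.65 (SE 0.13, limma adjusted p = 0.0441). Mrpl23 lost its call in all 16 omissions and Mrpl52 in 9: without the WT unstimulated replicate 1 array the adjusted p was 0.17 for Mrpl52 and 0.251 for Mrpl23, and without WT replicate 1 it was 0.185 and 0.347. Without WT replicate 1 or 2, or IkL/L replicate 1 or 2, 0 members passed.

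Averaged over the 3 conditions, 12 members were higher in IkL/L cells and 0 lower (3.41% of all genes higher and 2.67% lower): Mrpl12, Mrpl23, Mrpl45, Mrpl48, Mrpl52, Mrps7, Mrps14, Mrps15, Mrps25, Mrps28, Mrps31 and Mrps34. At an unadjusted p under 0.05 1 member was lower by limma. Their differences ran from 0.27 (Mrps34) to 0.57 (Mrpl48), and Mrps25 had the smallest adjusted p (0.40, limma adjusted p = 0.0117), a call lost without IkL/L replicate 1 (0.0598) or 2 (0.189), and without WT replicate 1 (0.0828) or 2 (0.0518). The median over members was 0.20. The count was 15 without IkL/L replicate 1, 0 without IkL/L replicate 2, 5 without WT replicate 1 and 0 without WT replicate 2, and single-array omissions gave 1 to 11, the lowest without the IkL/L 3 h replicate 2 array. It was 1 under the housekeeping scaling, and 19 higher and 1 lower with a replicate block shared by both genotypes.

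**Figure D4:**
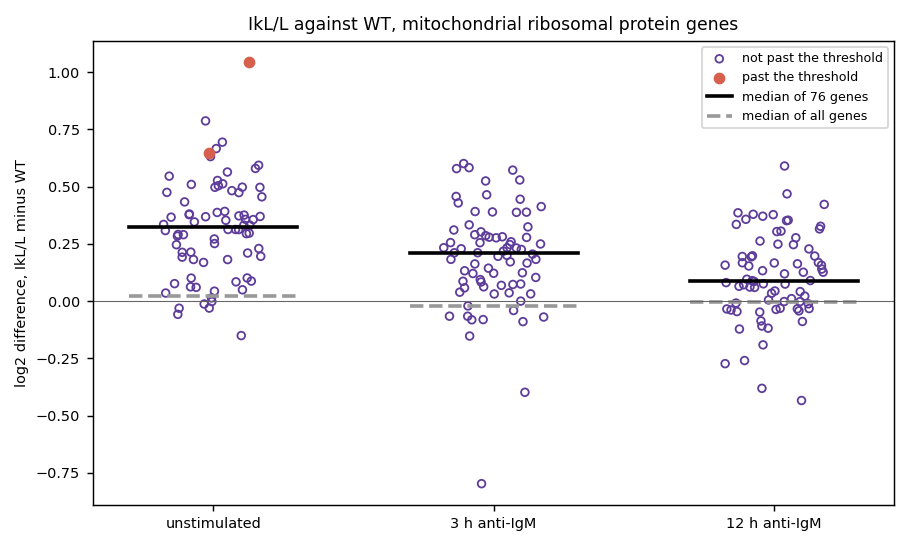
Log2 difference between IkL/L and WT cells (IkL/L minus WT, vertical axis) for each of the 76 members in the 3 conditions (horizontal axis, points spread sideways for view), with the members' median as a black bar and the median of all genes as a dashed grey bar. The members' median was 0.32 unstimulated, 0.21 at 3 h and 0.09 at 12 h, and Mrpl52 and Mrpl23 in unstimulated cells passed the test.

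The responses to anti-IgM were smaller in IkL/L cells for most members, but no single difference in response passed the test. At 3 h 53 members and at 12 h 60 of 76 had a smaller log2 difference in IkL/L cells than in WT cells. The difference was positive for 30.3% of members and 42.7% of all genes at 3 h, and for 21.1% and 46.3% at 12 h. The median difference of responses was -0.11 at 3 h and -0.20 at 12 h (all genes -0.04 and -0.02), and 0 members passed the limma test at either time (0.0385% of all genes did at 3 h, 0.0275% higher and 0.011% lower, and 0.022% at 12 h), with 4 and 9 lower and 0 higher at an unadjusted p under 0.05. Leaving out 1 array moved that median to between -0.24 and -0.04 at 3 h and between -0.31 and -0.07 at 12 h, lowest without the IkL/L replicate 2 array of that time and nearest 0 without its replicate 1 array. It was -0.02 at 3 h after median centring (all genes 0.04) and -0.37 at 12 h under the housekeeping scaling (all genes -0.19). The unstimulated arrays enter both the higher unstimulated level and the smaller response of IkL/L cells, so these are not separate observations. Mrpl52 had the largest difference of the 12 h response, -1.0 (SE 0.25, limma adjusted p = 0.468), and the members Mrps24 and Mrpl41 had -0.77 (adjusted p = 0.398) and -0.76 (adjusted p = 0.456). For Mrpl12 the difference was -0.43 at 12 h (adjusted p = 0.824).

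The members had 156 probe sets in all, and 42 members had more than 1. The 80 probe sets not used were dimmer, with a median signal of 4.35 against 8.07 for those used. In the comparison of 12 h with unstimulated cells, 22 of the 80 rose and 0 fell in IkL/L cells and 22 rose and 0 fell in WT cells, and at 3 h 22 rose in IkL/L cells and 18 in WT cells. Single probe sets were tested in a separate limma fit, with the adjustment over all 45037 probe sets. The share of all probe sets called in that fit was not computed, and the shares of genes given above do not apply to it. When each gene was given the average of its probe sets, the members' 12 h median was 0.52 in IkL/L cells and 0.60 in WT cells, against 0.66 and 0.91 with the brightest probe set. No member had 2 probe sets that changed in opposite directions in any of the 6 time comparisons.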

How the data were processed

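The deposited table holds log2 signals per probe set for the 12 arrays, which the authors made with RMA (version not stated), per the submitters' processing notes. Affymetrix 3' arrays were used after 2 rounds of labelling from 100 ng of RNA, per the labels' protocols. RMA fits one scale to all arrays, so a change of most genes in one direction would be lost. Of 45037 probe sets, 34945 carry 1 symbol in the annotation used, 932 carry several and 9160 are not listed. Probe sets with several symbols were left out, and 4 of them name a member symbol. A linear model of the 6 group means over the 12 arrays was fitted with limma 3.58.1 in R 4.3.3 (lmFit and eBayes, 6 residual and 3.95 prior degrees of freedom). SE is the moderated standard error. Benjamini-Hochberg adjustment ran over the 18193 genes within each of 12 comparisons. The number of arrays limits the precision. The p-values rest on the spread between the 2 arrays of a group, pooled over the 6 groups, and those arrays come from 2 experiments. Over the 6064 brightest genes, arrays with the same number deviated together within WT (r 0.546 to 0.619) and IkL/L (r 0.354 to 0.49) but not in all pairs across genotypes (r 0.0263 to 0.31), so a replicate block within genotype was also fitted. Other settings were the mean of a gene's probe sets, removal of the dimmest genes (1 in 3), median centring, scaling to housekeeping genes, a replicate block shared by both genotypes, and leaving out each array or each replicate of a genotype. Where that left 1 array in a group, the lone array is assumed to vary like the others. The fit was tested on simulated data. Genes are named by a rule: the 5 largest rises and falls past the threshold in each time comparison, members past it (else the 3 smallest p) in each genotype comparison, 10 named for their function, and up to 3 of each list, and others are named after their values were seen. The members and lists were chosen with earlier results of these data known. Sequences are from RefSeq on GRCm38.p6.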

Additional observations from a re-analysis of the deposited data

Results flagged for a closer look

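One probe set that names 2 genes, Nme3;Mrps34, was left out of the comparisons because its signal cannot be given to either gene, and it changed there. In IkL/L cells it read 5.57 and 5.56 at 3 h of anti-IgM, against 6.45 and 6.88 unstimulated, so the groups did not overlap. The log2 difference was -1.1 (limma adjusted p = 0.00705, in the separate fit over all probe sets, as for the other values here). In WT cells it read 6.14 and 6.27 at 3 h, against 6.77 and 7.09 unstimulated, and the difference did not pass the limma test (adjusted p = 0.0569). The probe set with Mrps34 alone had a difference of 0.23 in IkL/L cells at 3 h (adjusted p = 0.179).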

How the results depend on the processing

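Counts of changed members moved with the replicates left out and with the scaling to 7 measured housekeeping genes of 11. For none of these settings was the share of all genes called computed. The scaling moved the median of all genes to -0.34 (IkL/L) and -0.14 (WT) at 12 h. Under it 15 (IkL/L) and 20 (WT) members changed at 3 h, 5 and 33 at 12 h, 4 and 3 between 3 h and 12 h, 0 between genotypes unstimulated and 1 on average over conditions. The members' median from 3 h to 12 h in IkL/L cells turned to -0.18 there, and that between genotypes at 12 h to -0.03. The medians of all genes in these comparisons were then -0.32 and -0.12. Median centring gave 13 for 12 h against 3 h in IkL/L cells and 1 between genotypes unstimulated, and removal of the dimmest genes (1 in 3) also gave 1 between genotypes unstimulated. A replicate block within genotype gave 31 for 12 h against 3 h in IkL/L cells, and moved no other count by over 1.5 times. A replicate block shared by both genotypes gave 3 members between genotypes at 3 h and 20 on average. Leaving out single arrays or whole replicates gave, for IkL/L and WT cells, 12 to 32 and 7 to 37 at 3 h, 20 to 49 and 31 to 61 at 12 h, and 1 to 20 and 3 to 23 between the times. Between genotypes it gave 0 to 2 unstimulated, 0 to 1 at 3 h, 0 to 1 at 12 h and 0 to 15 on average, and 0 for both differences of response. Of 1702 values of single named members under these settings, 1328 kept direction and side of the threshold, 374 no longer passed it and 0 changed sign. Only calls past the threshold in the main fit entered this tally. Many settings could not change a log2 difference, such as the replicate blocks and the omission of arrays outside the groups compared. The tally therefore says little about stability of direction. Apart from the fewer arrays in the omissions, the cause of the moved counts and lost calls was not tested. With 2 arrays a group, the number of arrays limits what can be called.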

Other observations

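Mrpl30 and Mrpl53 are represented on the array by probe sets that also carry other symbols (Gm6238;Mrpl30 and Ccdc142;Mrpl53), so they are not among the 76. The brighter Gm6238;Mrpl30 probe set read 9.59 and 9.77 at 12 h of anti-IgM, against 9.68 and 9.76 unstimulated, in IkL/L cells. In WT cells it read 9.53 and 9.59, against 9.34 and 9.24. The Ccdc142;Mrpl53 probe set read 7.17 and 7.32 at 12 h, against 6.55 and 6.95 unstimulated, in IkL/L cells, and 6.76 and 6.85, against 6.61 and 6.80, in WT cells.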
